A study of Homo sapiens with 18 samples.

Results

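The genes described here are 36 genes of amino acid supply and endoplasmic reticulum (ER) stress, out of 20044 genes that the array's annotation names. They were chosen by symbol, with earlier results of these data known, and fall into 2 arms. The amino acid arm holds 29 genes linked to the transcription factor ATF4: 9 regulators, 11 enzymes of amino acid and folate metabolism, 6 amino acid transporters and 3 other target genes. The ER arm holds 7 genes of protein folding in the ER. A named probe was present for 34 members, and 31 members passed the filter for HT29, 32 for Colo-205 and 32 for the comparison of the lines. The filter asked for a detection p-value under 0.01 on at least 2 arrays of the fit. GPT2 and HERPUD1, without a named probe, were not analysed here. The probes of CHAC1 and SESN2 were not above background on any of the 18 arrays. The probe of CBS was not above background on any HT29 array.

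The study followed RNA levels in 3D cultures of HT29 and Colo-205, human colon cancer lines known to carry an activating BRAF mutation, grown in Matrigel, a gel of basement membrane proteins. Cultures received 3 µM PLX4720, an inhibitor of mutant BRAF, or the solvent DMSO, from culture day 5. HT29 was kept in DMEM and Colo-205 in RPMI 1640, each with fetal calf serum. HT29 cultures were lysed at days 1, 3 and 8 as biological duplicates, which gives 2 arrays in each of 6 groups, and Colo-205 at days 1, 3 and 10 with 1 array in each group. The labels do not say from which event these days are counted. In comparisons within a line, all cells shared the medium and differ in treatment or day. The lines differ in medium and lay on 2 separate BeadChips. Line, medium and BeadChip therefore cannot be told apart in levels or drug effects set between lines.

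ATF4 is translated when a kinase phosphorylates the initiation factor eIF2α, as happens when amino acids run short or unfolded protein collects in the ER. It then switches on enzymes that make serine, glycine, proline and asparagine, transporters that import amino acids, and regulators such as DDIT3 and TRIB3. The ER arm answers mainly to ATF6 and XBP1, which raise chaperones such as HSPA5, also called BiP, when folding in the ER falls behind.

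The arrays were alike in quality: 38.3% to 41.4% of probes were above background on each, and replicate HT29 arrays correlated at 0.986 to 0.991 over probes. Of 7 epithelial markers, 6 were above background on every array of both lines, which matches the labelled origin. PTPRC, CD3E, VWF and COL3A1 were above background on 0 arrays. ACTA2 was above background on 12 HT29 arrays and 1 Colo-205 array, and CD68 on every array. DUSP6, a target of ERK signalling that serves as a check of the treatment, fell at HT29 days 1, 3 and 8 (-2.54, -2.21 and -2.33 on the log2 scale) and in Colo-205 (-2.13). MYC fell in HT29 at day 1 (-1.49) and day 3 (-1.06). Its values of 0.30 at HT29 day 8 and 0.04 in Colo-205 did not pass the threshold. Levels below are normalized log2 intensities, on which 1 unit is a 2-fold change. A gene is called where limma's moderated test gives a Benjamini-Hochberg adjusted p under 0.05 over all genes of the fit.

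The promoters of 5 members are shown because they hold the DNA motifs through which the arms are known to be controlled. The sequences are RefSeq windows of 250 bases before a start listed for the gene, build GRCh38.p14, written 5′ to 3′ on the gene's strand. In the first 2, capitals mark the fixed bases of the amino acid response core, TGATGNAA, which ATF4 binds together with C/EBP proteins. In the other 3, capitals mark the fixed bases of the ER stress response element, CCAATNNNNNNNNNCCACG. The ASNS window is chr7:97872409-97872658 on the minus strand, inside the annotated span of the gene. The SLC1A5 window is chr19:46784815-46785064 on the minus strand, before 1 of the 3 starts listed for that gene and also inside its annotated span. The HSPA5 window is chr9:125241344-125241593 on the minus strand, the HSP90B1 window chr12:103930160-103930409 on the plus strand, and the XBP1 window chr22:28800570-28800819 on the minus strand.
ASNS: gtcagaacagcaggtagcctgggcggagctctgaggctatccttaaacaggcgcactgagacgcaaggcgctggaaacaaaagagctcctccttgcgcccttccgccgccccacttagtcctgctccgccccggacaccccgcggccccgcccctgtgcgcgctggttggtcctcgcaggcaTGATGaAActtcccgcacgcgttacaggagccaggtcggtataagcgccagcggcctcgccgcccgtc
SLC1A5: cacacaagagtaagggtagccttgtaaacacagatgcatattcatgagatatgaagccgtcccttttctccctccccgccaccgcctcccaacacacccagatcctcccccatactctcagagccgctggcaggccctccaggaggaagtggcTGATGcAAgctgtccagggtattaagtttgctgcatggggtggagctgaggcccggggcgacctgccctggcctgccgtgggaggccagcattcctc
HSPA5: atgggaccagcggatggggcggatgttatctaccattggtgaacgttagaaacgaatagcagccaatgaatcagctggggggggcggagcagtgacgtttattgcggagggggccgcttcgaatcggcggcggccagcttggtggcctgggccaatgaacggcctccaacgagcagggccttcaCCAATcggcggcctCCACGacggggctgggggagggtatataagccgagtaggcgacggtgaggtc
HSP90B1: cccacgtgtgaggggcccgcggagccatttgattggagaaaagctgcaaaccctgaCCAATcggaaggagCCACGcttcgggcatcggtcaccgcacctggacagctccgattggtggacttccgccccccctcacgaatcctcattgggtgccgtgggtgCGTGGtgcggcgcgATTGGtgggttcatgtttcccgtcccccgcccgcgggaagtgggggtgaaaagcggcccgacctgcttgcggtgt
XBP1: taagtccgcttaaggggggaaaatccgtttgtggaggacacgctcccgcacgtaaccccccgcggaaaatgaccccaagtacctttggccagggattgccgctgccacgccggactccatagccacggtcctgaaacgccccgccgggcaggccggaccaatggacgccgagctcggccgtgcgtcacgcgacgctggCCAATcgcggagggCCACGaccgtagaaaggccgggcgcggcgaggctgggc
HSP90B1 held 2 copies of the element, the second on the opposite strand.

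Windows of 300 bases, 250 before and 50 after the start, were at hand for 30 members, and both strands were searched. The amino acid response core was in 3.62% of 35116 RefSeq promoters. It was in 6 of the 39 promoters (15.4%) of the 23 amino acid members that had a window, 1 promoter in each of 6 genes: ASNS, CEBPG, CHAC1, SLC1A4, SLC1A5 and SLC3A2. In the ER arm it was in 1 of 9 promoters (11.1%), that of HERPUD1. The ER stress response element was in 0.0769% of all promoters, in 3 of the 9 promoters (33.3%) of the 7 ER members, those of HSPA5, HSP90B1 and XBP1, and in 0 of the 39 of the amino acid members. Some members are on the list because they are known targets, so these matches are a description of the list.

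In HT29, part of the amino acid arm was called lower with PLX4720 at each day, and the members called lower in part differed between days. At day 1, 12 of 31 members were called, 10 lower and 2 higher, where 22.6% of all 12675 genes were called, 10.8% lower and 11.8% higher. At day 3, 14 members were called, 12 lower and 2 higher, where the background was 16.5% in all, 7.54% lower and 8.95% higher. At day 8, 10 members were called, 8 lower and 2 higher, with a background of 16% in all, 8.62% lower and 7.33% higher. In the amino acid arm, 8, 11 and 8 of 25 tested members were called lower at days 1, 3 and 8. In the ER arm 2, 1 and 0 of 6 were, so the arms had a like share of lower calls at day 1. The median change of the amino acid arm was -0.46, -0.53 and -0.36, and that of the ER arm -0.19, 0.12 and -0.18, while the median over all genes was 0.00, 0.01 and 0.01. MTHFD2, SLC1A5 and TRIB3 were called lower at all 3 days, SDF2L1 was called at all 3 days in changing direction, and 11 members were called on 0 days. Without any 1 of the 4 day 3 arrays, 7 or 8 members were called at day 3. In bulk RNA, fewer cells that express a gene and less RNA per cell cannot be told apart.

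**Figure D1:**
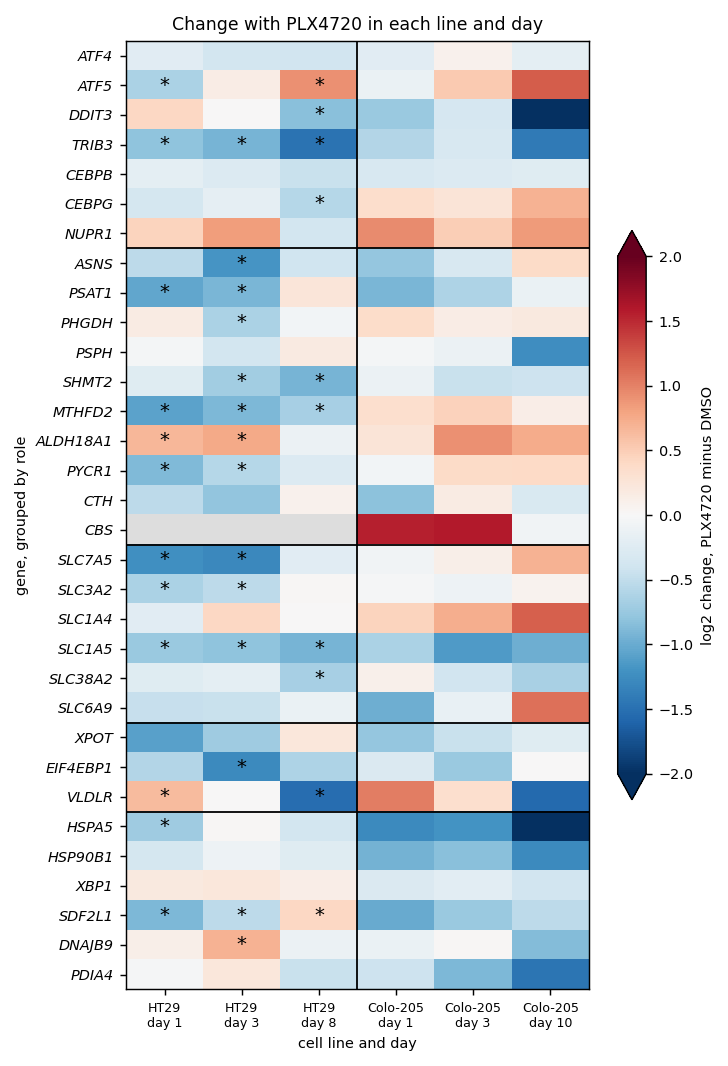
Change in log2 intensity, PLX4720 minus DMSO, for the members tested (rows, grouped by role with lines between roles) in each line and day (columns); blue is lower and red higher with PLX4720, grey was not tested, and the colours stop at 2 log2 units in either direction. Stars mark HT29 calls at an adjusted p under 0.05, 12 at day 1, 14 at day 3 and 10 at day 8; the Colo-205 columns are differences of 1 array from 1 array and carry no test by day.

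Of 7 regulators tested, 2 fell at day 1, 1 at day 3, and 3 fell and 1 rose at day 8. The shares called over all genes were 22.6%, 16.5% and 16%, and the list is small. The RNA of ATF4 itself was not called at any day. Its HT29 arrays read 12.69 and 12.76 with DMSO and 12.6 and 12.39 with PLX4720 at day 1, then 12.64 and 12.59 against 12.35 and 12.16 at day 3. At day 8 they read 12.74 and 12.72 with DMSO and 12.35 and 12.33 with PLX4720. Treated arrays lay below control arrays at each day without overlap, but by small steps. The changes of -0.23 ± 0.12 (SE, 2 arrays a group), -0.36 ± 0.12 and -0.39 ± 0.12 had adjusted p of 0.208, 0.0731 and 0.0563 by limma. Of the other 2 ATF4 probes, which were above background on all arrays too, 1 gave 0.20 and the other 0.07 at day 1, so the probes disagree in sign there.

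TRIB3, a pseudokinase that ATF4 and DDIT3 induce and that dampens AKT signalling, fell at every day. Its arrays read 10.39 and 10.1 with DMSO and 9.62 and 9.24 with PLX4720 at day 1, and 9.98 and 9.87 against 9.02 and 8.97 at day 3. At day 8 the control arrays stood at 10.34 and 10.23 and the treated arrays at 8.93 and 8.67. The groups did not overlap on any day, and the treated arrays were lower at each later day. The changes were -0.81 ± 0.16 (adjusted p = 0.00761), -0.93 ± 0.16 (0.0061) and -1.48 ± 0.16 (0.000397). The day 1 call was lost without PLX4720 replicate 2 of day 1, with an adjusted p of 0.0518.

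DDIT3, also called CHOP, a transcription factor that promotes cell death under prolonged stress, took another course. It read 6.71 and 6.69 with DMSO and 7.06 and 7.15 with PLX4720 at day 1, and 6.81 and 6.94 against 6.88 and 6.88 at day 3. Day 8 arrays read 7.52 and 7.41 with DMSO and 6.38 and 6.87 with PLX4720. The treated arrays were the higher ones at day 1, lay between the controls at day 3, and were the lower ones at day 8. The values at days 1 and 3, 0.41 ± 0.16 (adjusted p = 0.0947) and 0.01 ± 0.16, were not called, and the fall of 0.84 at day 8 was (adjusted p = 0.00691). The day 8 call was lost in a fit of the 4 arrays of that day alone (0.0624).

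ATF5, a relative of ATF4, changed direction. It read 10.02 and 10.12 with DMSO and 9.45 and 9.42 with PLX4720 at day 1. At day 8 it read 8.99 and 8.94 with DMSO and 9.94 and 9.82 with PLX4720. It fell by 0.63 at day 1 (adjusted p = 0.0049) and rose by 0.92 at day 8 (0.000828), with 0.15 at day 3, and in the array values it is the control that moved most. CEBPG, a partner of ATF4 on DNA, fell by 0.57 at day 8. That call was lost in the fit of day 8 alone (adjusted p = 0.0718) and without DMSO replicate 2, PLX4720 replicate 1 or PLX4720 replicate 2 of that day (up to 0.147). CEBPB gave -0.20, -0.28 and -0.45, and NUPR1, a small stress-induced chromatin protein, gave 0.83 at day 3 and -0.36 at day 8. These were not called.

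Of 9 enzymes tested, 3 fell and 1 rose at day 1, 6 fell and 1 rose at day 3, and 2 fell at day 8. The shares called over all genes were 22.6%, 16.5% and 16%. MTHFD2, a mitochondrial folate enzyme that takes up carbon from serine, read 10.58 and 10.55 with DMSO and 9.55 and 9.46 with PLX4720 at day 1, and 10.22 and 10.28 against 9.4 and 9.29 at day 3. At day 8 its arrays read 9.57 and 9.81 with DMSO and 9.05 and 9.01 with PLX4720. Treated and control arrays were apart at each day, with changes of -1.07, -0.90 and -0.66 (adjusted p = 0.000393, 0.0015 and 0.00552). The day 8 call was lost in the fit of that day alone (0.0545). PSAT1, the aminotransferase of serine synthesis, fell by 1.04 and 0.92 at days 1 and 3, and its value at day 8 was 0.24. The day 3 call of PSAT1 was lost without DMSO replicate 1, DMSO replicate 2 or PLX4720 replicate 2 of that day (adjusted p up to 0.114).

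PHGDH, which opens the serine pathway, fell at day 3 (-0.64) and gave 0.17 and -0.06 at days 1 and 8. SHMT2, which turns serine into glycine in mitochondria, fell at day 3 (-0.69) and day 8 (-0.93) and gave -0.25 at day 1. PYCR1, the last enzyme of proline synthesis, fell by 0.89 at day 1 and 0.57 at day 3. The gene's other 2 probes were above background on 8 and 4 HT29 arrays, and with the mean of its detected probes neither call held (adjusted p of 0.127 and 0.382). ALDH18A1, which makes the precursor that PYCR1 works on, went the other way and rose by 0.66 at day 1 and 0.75 at day 3. Single arrays decided 4 of these calls: PHGDH at day 3 was lost without DMSO replicate 1 (adjusted p = 0.0513), ALDH18A1 at days 1 and 3 without PLX4720 replicate 1 of that day (0.0502 and 0.0504; at day 1 also in the fit of that day alone), and PYCR1 at day 3 without any 1 of the 4 arrays of the day (up to 0.14). PSPH, which completes serine synthesis, gave -0.04, -0.36 and 0.18, and CTH, which makes cysteine, gave -0.53, -0.79 and 0.09. Neither was called.

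ASNS, which makes asparagine and is a standard readout of ATF4, fell only at day 3 by the test. Its arrays read 11.51 and 11.07 with DMSO and 10.96 and 10.56 with PLX4720 at day 1, and 10.76 and 10.47 against 9.55 and 9.33 at day 3. At day 8 they read 10.18 and 10.1 with DMSO and 9.91 and 9.57 with PLX4720. The treated arrays were below the controls at each day without overlap. The changes were -0.53 ± 0.21 (adjusted p = 0.0985), -1.18 ± 0.21 (0.00601) and -0.40 ± 0.21 (0.239), and a second ASNS probe gave -0.37, -1.17 and -0.46. The effects at days 1 and 3 were not shown to differ. For that difference limma called 0 of 31 members, where 0.197% of all genes were called. At an unadjusted p under 0.05 there were 6 members, with no share over all genes given at that level. The day 3 call was lost without PLX4720 replicate 2 of that day, with an adjusted p that rounds to 0.05.

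**Figure D2:**
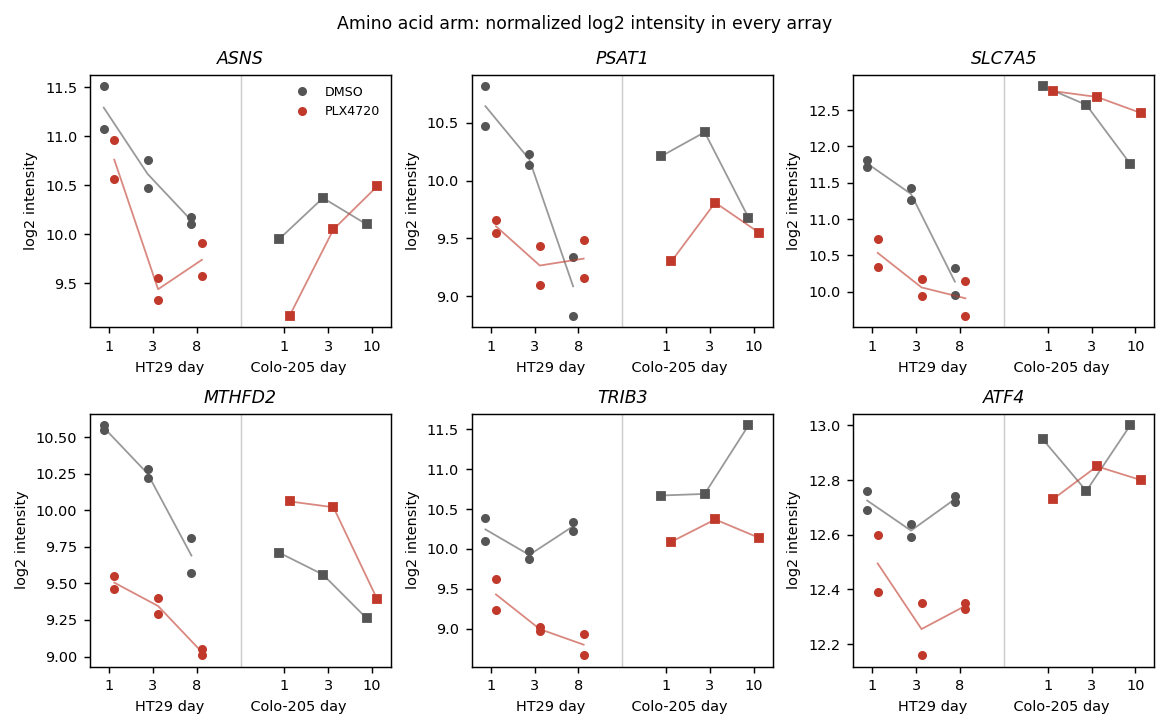
Normalized log2 intensity of 6 members of the amino acid arm on every array, by day, for HT29 (circles, 2 arrays a group) and Colo-205 (squares, 1 array a group); grey is DMSO, red is PLX4720, lines join group means and each panel has its own axis. In HT29, control arrays of SLC7A5, PSAT1 and MTHFD2 went down with time, and by day 8 those of SLC7A5 and PSAT1 overlapped the treated arrays.

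Of 6 transporters, 3 fell at day 1, 3 at day 3 and 2 at day 8, where 22.6%, 16.5% and 16% of all genes were called. SLC7A5, the light chain of the LAT1 carrier for leucine and other large neutral amino acids, read 11.81 and 11.72 with DMSO and 10.73 and 10.34 with PLX4720 at day 1, and 11.43 and 11.26 against 10.18 and 9.94 at day 3. On day 8 arrays the levels were 10.32 and 9.96 with DMSO and 10.15 and 9.67 with PLX4720. The groups were more than 1 unit apart in their means at days 1 and 3 and overlapped at day 8, where the controls had come down. SLC7A5 fell by 1.23 (adjusted p = 0.0032) and 1.29 (0.00387), and the value at day 8 was -0.23 ± 0.21 (0.523).

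SLC3A2, the heavy chain that carries SLC7A5 to the membrane, fell by 0.63 at day 1 and 0.53 at day 3 and gave 0.02 at day 8. Its second probe gave -0.62, -0.61 and 0.76, so the probes disagree at day 8, and the day 3 call was lost with the mean of both probes (adjusted p = 0.0643) and without any 1 of the 4 arrays of that day (up to 0.149). SLC1A5, the glutamine and neutral amino acid carrier ASCT2, read 10.6 and 10.71 with DMSO and 9.92 and 9.91 with PLX4720 at day 1. It read 10.39 and 10.42 against 9.61 and 9.58 at day 3, and 10.22 and 10.59 against 9.55 and 9.4 at day 8. Groups were apart at each day, with changes of -0.74, -0.81 and -0.93 (adjusted p = 0.00494, 0.00512 and 0.00195), and each of the 3 calls was kept without any 1 array. SLC38A2, a carrier of small neutral amino acids, fell at day 8 (-0.66), a call lost in the fit of that day alone (adjusted p = 0.0657) and without DMSO replicate 1, DMSO replicate 2 or PLX4720 replicate 2 of that day (adjusted p up to 0.152). SLC6A9, a glycine carrier, gave -0.46, -0.45 and -0.14. SLC1A4, a carrier of alanine and serine, was above background on 5 of 12 HT29 arrays and gave a bound of at least 1.15-fold higher with PLX4720 at day 3. Neither was called.

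Of the 3 remaining ATF4-linked genes, VLDLR and EIF4EBP1 were called. VLDLR, a lipoprotein receptor, read 5.02 and 5.08 with DMSO and 5.66 and 5.69 with PLX4720 at day 1, and 5.71 and 6.13 against 5.8 and 6.05 at day 3. Its day 8 arrays read 7.76 and 7.51 with DMSO and 6.07 and 6.13 with PLX4720. The control arrays climbed by more than 2 units, and the treated arrays stayed between 5.66 and 6.13. It rose by 0.63 at day 1 and fell by 1.53 at day 8 (adjusted p = 0.0226 and 0.000301), with 0.01 at day 3. The day 1 call was lost without background correction, in the authors' processed values (adjusted p up to 0.149), and without any 1 of the 4 arrays of that day (up to 0.0914).

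EIF4EBP1, a brake on translation that mTOR releases, read 6.22 and 6.83 with DMSO and 5.64 and 6.25 with PLX4720 at day 1. It read 6.65 and 6.6 against 5.32 and 5.37 at day 3, and 5.63 and 6.12 against 5.1 and 5.4 at day 8. The groups overlapped at day 1 and were apart at days 3 and 8. It fell by 1.28 at day 3 (adjusted p = 0.0114), a call lost without any 1 of the 4 arrays of that day (up to 0.0638), and gave -0.58 and -0.62 at days 1 and 8. XPOT, which exports tRNA from the nucleus, gave -1.08 ± 0.38, -0.71 ± 0.38 and 0.22 ± 0.38 and was not called at any day.

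Of 6 ER members tested in HT29, 2 fell at day 1, 1 fell and 1 rose at day 3, and 1 rose at day 8. Over all genes 22.6%, 16.5% and 16% were called, and with so few members these counts cannot be set apart from those shares. HSPA5, the main chaperone of the ER, read 8.53 and 8.26 with DMSO and 7.73 and 7.64 with PLX4720 at day 1, and 8.55 and 8.32 against 8.45 and 8.47 at day 3. At day 8 it read 8.82 and 8.86 with DMSO and 8.28 and 8.66 with PLX4720. It fell by 0.71 at day 1 (adjusted p = 0.0114), overlapped at day 3 (0.02 ± 0.16), and gave -0.37 ± 0.16 at day 8 (adjusted p = 0.153). The day 1 call was lost without DMSO replicate 1 or PLX4720 replicate 2 of that day (up to 0.0709).

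SDF2L1, a partner of HSPA5 in the ER, read 10.65 and 10.51 with DMSO and 9.58 and 9.78 with PLX4720 at day 1, and 10.37 and 10.25 against 9.82 and 9.75 at day 3. At day 8 it read 9.1 and 9.2 with DMSO and 9.52 and 9.62 with PLX4720. The treated arrays stayed in a narrow band while the controls dropped past them. It fell by 0.90 and 0.53 at days 1 and 3 and rose by 0.42 at day 8 (adjusted p = 0.00107, 0.0189 and 0.0446). The day 3 call was lost without any 1 of the 4 arrays of that day (up to 0.122). The day 8 call was lost without any 1 of 9 of the 12 HT29 arrays (up to 0.205), with median scaling (0.107), with no filter on dim probes (0.0691), with replicate number as a block (0.0532) and in the fit of that day alone (0.123). The 3 arrays without which it held were DMSO replicate 1 and both PLX4720 replicates of day 1.

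DNAJB9, a co-chaperone of HSPA5, read 7.49 and 7.59 with DMSO and 8.27 and 8.22 with PLX4720 at day 3. It rose by 0.70 there (adjusted p = 0.0135), a call lost without any 1 of the 4 arrays of that day (up to 0.0888). At day 1 it read 7.81 and 7.8 against 8.05 and 7.8, and at day 8 8.14 and 8.38 against 7.98 and 8.31, and the groups met or overlapped at both. XBP1, the transcription factor of the ER stress response, read 11.61 and 11.57 with DMSO and 11.74 and 11.83 with PLX4720 at day 1, and 11.65 and 11.68 against 11.84 and 11.94 at day 3. At day 8 it read 12.19 and 11.82 against 12.14 and 12.14. Its differences of 0.20, 0.22 and 0.14 were not called. HSP90B1, the ER form of HSP90, gave -0.35, -0.10 and -0.24, and PDIA4, a disulfide isomerase, gave -0.03, 0.22 and -0.44. These were not called.

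**Figure D3:**
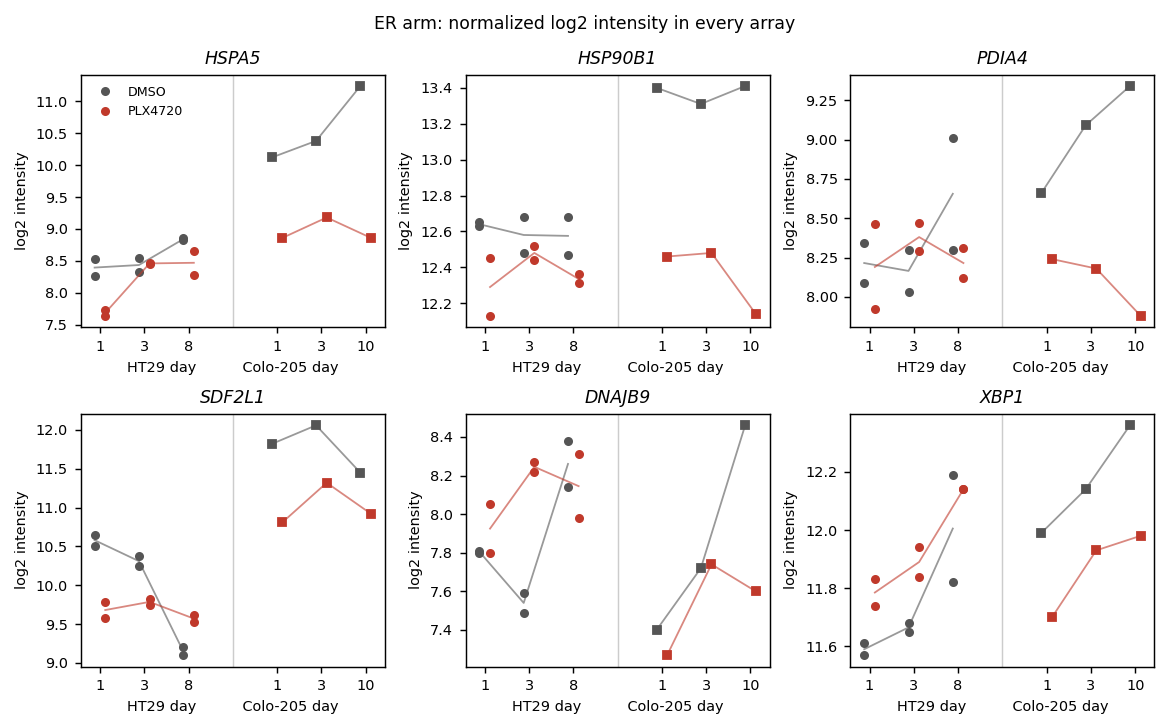
Normalized log2 intensity of the 6 tested members of the ER arm on every array, by day, for HT29 (circles, 2 arrays a group) and Colo-205 (squares, 1 array a group); grey is DMSO, red is PLX4720, lines join group means and each panel has its own axis. In Colo-205 the DMSO array lay above the PLX4720 array of the same day for 5 of the 6 genes on every day, and DNAJB9 differed by 0.03 at day 3.

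The HT29 controls changed with time as well. From day 1 to day 8 in DMSO, 21 of 31 members were called, 12 lower and 9 higher, where 42.4% of all genes were called, 20.4% lower and 22% higher. The falls included SLC7A5 (-1.63), PSAT1 (-1.56), SDF2L1 (-1.43), XPOT (-1.38), SLC3A2 (-1.25), ASNS (-1.15), ATF5 (-1.10), CTH (-1.09) and MTHFD2 (-0.88), with PSPH, PYCR1 and PHGDH between -0.77 and -0.39. VLDLR (2.59), ALDH18A1 (1.08), DDIT3 (0.77), SLC38A2 (0.63), SHMT2 (0.56), DNAJB9 (0.45), HSPA5 (0.44) and XBP1 (0.42) rose, and NUPR1 rose by at least 1.89-fold from arrays at background. Leaving out DMSO replicate 1 of day 1 or DMSO replicate 2 of day 8 brought the count to 14. The calls of PHGDH, PSPH, PYCR1, CTH, SLC38A2, XPOT, NUPR1, HSPA5, XBP1 and DNAJB9 were lost without at least 1 of these 2 arrays, with adjusted p up to 0.247. Of these, NUPR1, PSPH, PYCR1, HSPA5, XBP1 and DNAJB9 were also lost in at least 1 alternative processing (up to 0.183).

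In the treated cultures, 7 members were called over the same days, 2 higher and 5 lower, where 16.2% of all genes were, 8.65% higher and 7.51% lower. ASNS (-1.02), TRIB3 (-0.63), PHGDH (-0.62), SLC3A2 (-0.59) and MTHFD2 (-0.47) fell, and HSPA5 (0.79) and ATF5 (0.45) rose. The ATF5 call was lost with median scaling (adjusted p = 0.061). Without PLX4720 replicate 2 of day 8 the count was 1, without replicate 1 of that day it was 4, and without treated replicate 1 or 2 of day 1 it was 2 and 4. From day 1 to day 3 in DMSO only VLDLR was called (0.87), where 2.3% of all genes were, and from day 3 to day 8 there were 16 members, where 34.5% of all genes were. From day 1 to day 3 in PLX4720, ASNS (-1.32) and PHGDH (-0.79) fell and HSPA5 (0.78) rose, where 3.24% of all genes were called. From day 3 to day 8 in PLX4720, limma called 0 members, where 2.49% of all genes were called. At an unadjusted p under 0.05 there was 1 member, with no share over all genes given at that level. SLC7A5, PSAT1 and SDF2L1 fell in the controls and were not called in the treated cultures. From day 1 to day 8 the treated means went from 10.54 to 9.91 for SLC7A5, so it was lower there too. They went from 9.61 to 9.32 for PSAT1 and from 9.68 to 9.57 for SDF2L1. The difference between these time courses is the same quantity as the difference between the drug effects of day 8 and day 1, since both use the same 8 arrays.

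That difference was called for 9 members, 5 positive and 4 negative, where 16% of all genes were called, 7.05% positive and 8.91% negative. It was positive for ATF5 (1.55), SDF2L1 (1.32), PSAT1 (1.28), SLC7A5 (1.00) and SLC3A2 (0.66), and negative for VLDLR (-2.16), DDIT3 (-1.25), ALDH18A1 (-0.77) and SHMT2 (-0.68). ATF5, SDF2L1, VLDLR and DDIT3 were called without any 1 array, and the other 5 were each lost in at least 3 such fits. SLC7A5 was also lost with median scaling and with no filter on dim probes (adjusted p up to 0.0696), and SLC3A2 with no filter (0.0608). Without DMSO replicate 1 of day 1 the count was 4, and without PLX4720 replicate 1 of day 8 it was 5. Between days 8 and 3, 7 members were called, 3 positive and 4 negative, where 8.46% of all genes were, 3.54% positive and 4.92% negative. They were PSAT1, SDF2L1 and ATF5 with 1.16, 0.95 and 0.76, and VLDLR, ALDH18A1, DDIT3 and DNAJB9 with -1.54, -0.86, -0.85 and -0.82. With median scaling the share of higher calls over all genes went from 41.9% to 30.1%, and the members called were 2 higher and 4 lower. PSAT1 was lost with median scaling and with no filter on dim probes, DDIT3 with no filter, and DNAJB9 with no filter and with replicate number as a block (adjusted p up to 0.0629, 0.0726 and 0.0705). VLDLR alone of the 7 was called without any 1 array, and the count was 1 to 3 without any 1 of the day 3 arrays, the treated day 8 arrays or DMSO replicate 2 of day 8.

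In Colo-205, values in the ER arm were lower with PLX4720 and those in the amino acid arm had no common direction, without a call for any member. The test used the 3 days as replicates of the drug effect, with day as a block. It called 0 of 32 members, where 1.37% of 11575 genes were called, both at an adjusted p under 0.05. At an unadjusted p under 0.05 there were 13 members, 9 lower and 4 higher. No share over all genes is given at that level, so this count cannot be set against the 1.37%. By day, the ER arm had a median difference of -0.68, -0.79 and -1.06 at days 1, 3 and 10, and the amino acid arm -0.09, -0.01 and -0.03. With PLX4720, 5 of 6 ER members were lower on every day, where 18.8% of all genes were. Of the 26 amino acid members, 8 were lower and 6 higher on every day, where 18.8% and 22.2% of all genes were.

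HSPA5 read 10.12, 10.38 and 11.24 with DMSO and 8.86, 9.18 and 8.86 with PLX4720 at days 1, 3 and 10. The lowest control was above the highest treated array, and the gap was widest at day 10, where the control was highest. The mean difference was -1.61 ± 0.27 (SE, 3 days; adjusted p = 0.0612). It passed the threshold in 5 alternative settings: without background correction (0.0202), in the authors' processed values (0.0194), with a background fit that leaves out the detection p-values (0.0312), with median scaling (0.0427), and without day 10 (-1.23; 0.0153). Without day 1 or day 3, its adjusted p was 0.15 and 0.23.

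HSP90B1 read 13.4, 13.31 and 13.41 with DMSO and 12.46, 12.48 and 12.14 with PLX4720, a difference of -1.01 ± 0.18 (adjusted p = 0.0652). SDF2L1 read 11.82, 12.06 and 11.45 with DMSO and 10.81, 11.32 and 10.92 with PLX4720 (-0.76 ± 0.18; 0.113). In both, every control array was above every treated array. HSP90B1 and SDF2L1 passed without background correction (0.0125 and 0.0309) and in the authors' processed values (0.0125 and 0.0317). PDIA4 read 8.66, 9.09 and 9.34 with DMSO and 8.24, 8.18 and 7.88 with PLX4720 (-0.93 ± 0.24; 0.134). XBP1 read 11.99, 12.14 and 12.36 against 11.7, 11.93 and 11.98, and DNAJB9 read 7.4, 7.72 and 8.46 against 7.27, 7.74 and 7.6. Their mean differences were -0.29 and -0.32. The lowest XBP1 control lay just above the highest treated array, and the DNAJB9 groups overlapped.

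In the amino acid arm of Colo-205, SLC1A5 was the member nearest the threshold. It read 11.04, 11.29 and 10.83 with DMSO and 10.4, 10.15 and 9.85 with PLX4720, without overlap (-0.92 ± 0.18; adjusted p = 0.0824). Its adjusted p was 0.0191 without background correction and 0.0224 in the authors' processed values. SLC7A5 read 12.83, 12.57 and 11.76 with DMSO and 12.76, 12.68 and 12.46 with PLX4720, with a mean difference of 0.24. MTHFD2 read 9.71, 9.56 and 9.26 with DMSO and 10.06, 10.02 and 9.39 with PLX4720, higher with the drug on each day and 0.31 on average. Both means lay on the other side of 0 from the falls in HT29, but neither was called (0.24 ± 0.21 and 0.31 ± 0.17). By day, SLC7A5 differed by -0.07, 0.11 and 0.70 at days 1, 3 and 10, and HT29 has no day 10.

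ASNS read 9.95, 10.37 and 10.1 with DMSO and 9.17, 10.05 and 10.49 with PLX4720, so that the drug array was the lower at days 1 and 3 and the higher at day 10. ATF4 read 12.95, 12.76 and 13 against 12.73, 12.85 and 12.8. TRIB3 read 10.67, 10.69 and 11.55 with DMSO and 10.09, 10.37 and 10.14 with PLX4720 (-0.77 ± 0.25), lower on each day. EIF4EBP1 read 7.94, 7.76 and 7.2 with DMSO and 7.66, 7.02 and 7.22 with PLX4720 (-0.34 ± 0.20), and the arrays of the 2 treatments overlapped. CBS, which joins homocysteine and serine, read 6.12, 5.82 and 6.32 with DMSO and 7.68, 7.4 and 6.26 with PLX4720. It was higher at days 1 and 3 but not at day 10, and it was called without day 10 (1.57; adjusted p = 0.00638). CBS has a near-identical copy, CBSL, whose RNA its probe may also catch. The other 18 tested amino acid members had mean differences between -1.17, for DDIT3, and 0.79, for SLC1A4.

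The day 10 control stood apart in some members in Colo-205. DDIT3 read 7.82, 7.67 and 9.14 with DMSO and 7.06, 7.34 and 6.7 with PLX4720. VLDLR read 5.02, 5.77 and 7.79 with DMSO and 6.05, 6.09 and 6.24 with PLX4720. In both genes the day 10 control was the highest array by more than 1 unit, and the drug difference at day 10 was -2.44 for DDIT3 and -1.56 for VLDLR. From day 1 to day 10 the control gained 2.78 in VLDLR, 1.32 in DDIT3, 1.12 in HSPA5, 1.09 in PSPH, 1.05 in DNAJB9 and 0.88 in TRIB3. In the treated cultures the differences were 0.19, -0.36, 0.01, -0.11, 0.33 and 0.05 in the same genes. The genes named here had the largest control gains of the tested members. Other members fell in the control, such as SLC7A5 (-1.07) and ATF5 (-0.94), or hardly changed, such as HSP90B1 (0.01) and ATF4 (0.06). All are values of 1 array at each day and have no test, and no share over all genes was set beside them. In HT29, late controls also had the highest VLDLR and DDIT3 arrays of that line.

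**Figure D4:**
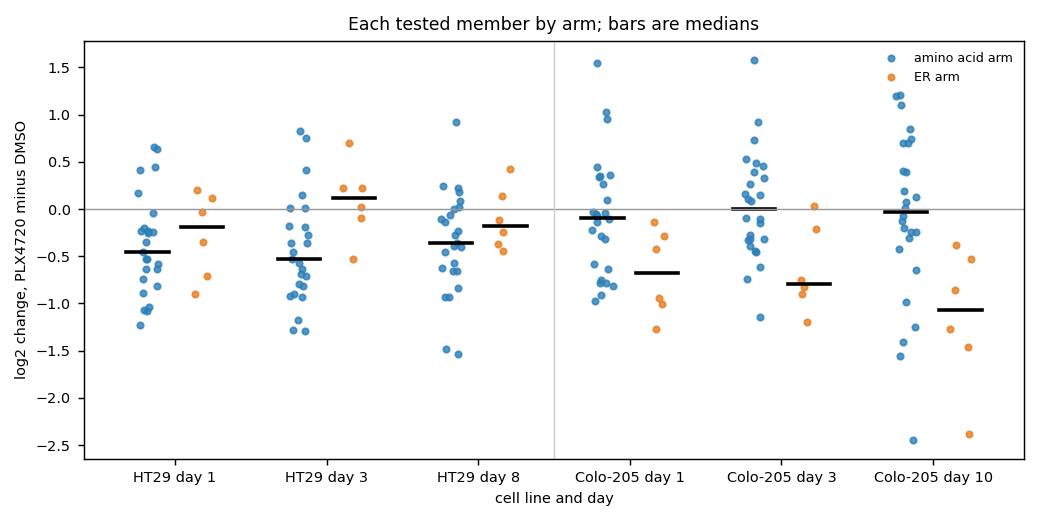
Change in log2 intensity, PLX4720 minus DMSO, of each tested member (points, amino acid arm in blue and ER arm in orange) by line and day, with black bars at the median of each arm. Medians of the ER arm in Colo-205 were -0.68, -0.79 and -1.06, and those of the amino acid arm in HT29 were -0.46, -0.53 and -0.36.

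The effect of PLX4720 in Colo-205 was compared with that in HT29 at days 1 and 3, which both lines have. Line, medium and BeadChip cannot be told apart in this comparison. The difference, Colo-205 minus HT29, was called for 6 of 32 members, 4 positive and 2 negative, where 5.17% of 12848 genes were called, 1.85% positive and 3.32% negative. MTHFD2 (1.39 ± 0.14; adjusted p = 0.00171), SLC7A5 (1.28 ± 0.20; 0.0119) and PYCR1 (0.90 ± 0.18; 0.0261) had positive differences. In HT29 these genes fell at both days, and in Colo-205 their differences at days 1 and 3 were 0.34 and 0.46 for MTHFD2, -0.07 and 0.11 for SLC7A5, and -0.05 and 0.39 for PYCR1. CBS had 1.53 ± 0.22 (0.00751), but its HT29 arrays were all at background, so that a change there could not be measured. HSPA5 (-0.89 ± 0.17; 0.0262) and DDIT3 (-0.75 ± 0.17; 0.0419) had negative differences. All 6 ER members had negative values, with a median of -0.56, and the median of the amino acid arm was 0.32. Leaving out day 1 or day 3 took the arrays of that day out of both lines and left Colo-205 with 1 array of each treatment. The calls were lost in those fits, which are too small to show whether the calls rest on 1 day. Between 3 and 5 members were called when 1 HT29 array was left out, and DDIT3 was lost in each of those fits, with adjusted p up to 0.387 over all that left out an array or a day. PYCR1 and HSPA5 were lost in 9 and 6 of those 10 fits, with adjusted p up to 0.269 and 0.482. In other processing, PYCR1 was lost with the mean of its detected probes (0.449), CBS with a background fit without detection p-values (0.0611) and in a fit of all 18 arrays (0.105), and DDIT3 with no filter on dim probes (0.06) and in the fit of all 18 arrays (0.119).

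The lines also differed in the level from which they started. Over the DMSO arrays of days 1 and 3, 5 of the 6 ER members were higher in both Colo-205 arrays than in all 4 HT29 arrays. HSPA5 stood at 10.12 to 10.38 in Colo-205 and 8.26 to 8.55 in HT29, and SDF2L1 at 11.82 to 12.06 and 10.25 to 10.65. DNAJB9 overlapped. In the amino acid arm, 11 members were higher in Colo-205 without overlap and 5 lower, and 9 overlapped. CHAC1 and SESN2, at background on all these arrays, were not counted. CTH was left out since another probe stands for it in each line. SLC7A5 stood at 12.57 to 12.83 in Colo-205 and 11.26 to 11.81 in HT29, and PHGDH at 12.34 to 12.46 and 11.06 to 11.14. SLC1A4 stood at 7.79 to 8.01 in Colo-205 and 4.27 to 5.13, near background, in HT29. ATF5 was the other way round, at 7.81 to 8.39 and 9.63 to 10.12. These levels are a description with no test. No share over all genes was set beside these counts, so they cannot be read as particular to the members.

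Genes that neighbour the members in the same pathways were counted in HT29 too. Cytosolic aminoacyl-tRNA synthetases, which load amino acids onto tRNA and are in part known ATF4 targets, were 1 such list: 9 of 18 tested fell and 0 rose at day 1, 7 fell and 0 rose at day 3, and 1 rose and 0 fell at day 8, where 10.8%, 7.54% and 8.62% of all genes fell. Their median change was -0.46, -0.43 and 0.07. VARS1 (-0.88) and FARSA (-0.86) led at day 1, HARS1 (-0.73) and VARS1 (-0.68) at day 3, and QARS1 (0.44) was the gene that rose at day 8. In the DMSO cultures 12 of the 18 fell from day 1 to day 8, where 20.4% of all genes did, led by KARS1 (-0.83) and HARS1 (-0.80).

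Of 13 other ATF4-linked genes tested, 4 fell and 4 rose at day 1, 5 fell and 3 rose at day 3, and 2 fell and 3 rose at day 8, where 22.6%, 16.5% and 16% of all genes were called. SLC7A11, the cystine carrier, fell by 1.98 at day 1 and by at least 3.22-fold at day 3, where the treated arrays were at background. MTHFD1L, a mitochondrial folate enzyme, fell by 1.03 and 0.95 at these days. At day 8 DDIT4 (-2.79) and VEGFA (-2.14), which hypoxia is also known to raise, were the genes that were lower with PLX4720. In the DMSO cultures DDIT4 rose by 3.27 and VEGFA by 2.4 from day 1 to day 8. Of 7 genes of the eIF2α kinases, their substrate and its phosphatase, EIF2S1 (-0.80) fell at day 1, limma called 0 at day 3 with 1 at an unadjusted p under 0.05, and EIF2AK2, which interferon is known to raise, fell at day 8 (-1.27). In the DMSO cultures EIF2AK2 rose by 1.84 from day 1 to day 8. With 1, 0 and 1 of 7 genes called, this list is too small to be set apart from the shares over all genes, 22.6%, 16.5% and 16%.

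Of 25 other ER folding and degradation genes, 4 fell and 2 rose at day 1, and 2 fell and 0 rose at each of days 3 and 8. These counts are near the share called over all genes at day 1 (22.6%) and below it at days 3 and 8 (16.5% and 16%). DNAJB11 (-0.72) and MANF (-0.70) fell most at day 1, and DNAJC3 (-0.76) and MANF (-0.60) at day 3. ERO1A, an oxidase of the ER that hypoxia is also known to raise, fell by 1.98 at day 8, and WFS1 by 0.55. In Colo-205, limma called 0 genes of these 4 lists. The 26 other ER folding genes tested there had a median of -0.27. Of these, 12 had an unadjusted p under 0.05, 11 of them lower, with no share over all genes given at that level. The 18 synthetases had a median of -0.05, with 0 at an unadjusted p under 0.05. The median over all genes was 0.02.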

How the data were processed

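Total RNA of 18 cultures was labelled as cRNA and hybridised to Illumina BeadChips, and groups follow the sample labels. For each array the deposited raw table pairs a linear intensity with a detection p-value, per the file headers, over 47323 probes. The method behind the authors' detection p-value, and that behind their second table of processed intensity values, are not stated in the labels or headers. The second table served as an alternative. The header for PLX4720 replicate 1 of HT29 day 8 includes the word mean, so that column may be an average, and it was treated as 1 array. All columns were mapped by name, with 0 left over. Missing values removed 4 probes.

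Intensities were corrected with limma's normexp method (limma 3.58.1, R 4.3.3) using a background inferred from the detection p-values and an offset of 16, which pulls changes of dim probes towards 0, then quantile normalized over 18 arrays and put on the log2 scale. Probe names from the platform's annotation were updated through Entrez identifiers to RefSeq symbols of GRCh38.p14. Of all probes, 30113 had 1 symbol, 8 had several and 17202 had none listed. The brightest probe on average stands for a gene, among probes that passed the filter of a detection p under 0.01 on 2 or more arrays in the fit. A probe not above background on any array of a group gives only a bound there: the brighter group's mean over the dimmer group's mean of, on each array, the higher of the probe's own value and the lowest value above background.

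HT29 was fitted as 6 group means over 12 arrays, Colo-205 over 6 arrays with a block for day, and the line difference over the 12 arrays of days 1 and 3, with lmFit and eBayes, two-sided, Benjamini-Hochberg adjustment over all genes and a threshold of 0.05. The median standard error of a change was 0.18 in HT29, 0.19 in Colo-205 and 0.22 for the line difference, and the small number of arrays limits the precision. For HT29, p-values measure the spread between biological duplicates, and for Colo-205 the spread between days. Those of the line difference rest mostly on the spread between HT29 duplicates, since Colo-205 has 1 array in each group. Alternatives were other background corrections, scalings, filters, probe rules and sample sets. Array values are given for, in each arm, the 4 members with the largest change in any HT29 day among those called (3 were called in the ER arm), for ATF4, ASNS, DDIT3, HSPA5 and XBP1, and for MTHFD2, SLC1A5, ATF5, HSP90B1, PDIA4 and CBS, which were added after their values were seen. Of each other list, at most 2 called genes a day are named. The members, lists and tests were chosen with earlier results of these data known.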

Additional observations from a re-analysis of the deposited data

Results flagged for a closer look

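The effect of PLX4720 in HT29 differed between days by a test of the difference itself for these members. From day 1 to day 8 the drug effect shifted by 1.55 ± 0.16 (SE) on the log2 scale for ATF5 (limma, adjusted p = 0.000542), by 1.32 ± 0.17 for SDF2L1 (0.00136), by 1.28 ± 0.29 for PSAT1 (0.0184), by 1.00 ± 0.29 for SLC7A5 (0.0473) and by 0.66 ± 0.18 for SLC3A2 (0.0396). It shifted by -2.16 ± 0.23 for VLDLR (0.000542), by -1.25 ± 0.22 for DDIT3 (0.00612), by -0.77 ± 0.19 for ALDH18A1 (0.026) and by -0.68 ± 0.16 for SHMT2 (0.0192). For ATF5, SDF2L1 and VLDLR the drug effect was called in opposite directions at days 1 and 8. Both ATF5 calls were kept in every alternative tried. The SDF2L1 call at day 8 was lost without any 1 of 9 of the 12 HT29 arrays and in 4 alternative processings or sample sets. The VLDLR call at day 1 was lost without any 1 of the 4 arrays of that day and in 2 alternative processings.

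From day 3 to day 8 it shifted by 1.16 ± 0.29 for PSAT1 (0.0426), by 0.95 ± 0.17 for SDF2L1 (0.0115) and by 0.76 ± 0.16 for ATF5 (0.0239). It shifted by -1.54 ± 0.23 for VLDLR (0.00492), by -0.86 ± 0.19 for ALDH18A1 (0.0277), by -0.85 ± 0.22 for DDIT3 (0.0481) and by -0.82 ± 0.21 for DNAJB9 (0.0466). The day 8 arrays are shared by both sets of differences.

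Between the lines, the drug effect of Colo-205 minus that of HT29 at days 1 and 3 was 1.53 ± 0.22 for CBS (0.00751), 1.39 ± 0.14 for MTHFD2 (0.00171), 1.28 ± 0.20 for SLC7A5 (0.0119), 0.90 ± 0.18 for PYCR1 (0.0261), -0.75 ± 0.17 for DDIT3 (0.0419) and -0.89 ± 0.17 for HSPA5 (0.0262). CBS was at background on the HT29 arrays. Each Colo-205 value rests on 1 array of each treatment and day.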

How the results depend on the processing

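Of 86 calls of members in 9 comparisons, 33 were kept in every alternative tried, 25 were lost in at least 1 alternative processing or sample set and 50 when 1 array or day was left out. Without background correction, in the authors' processed values and with no filter on dim probes, the members called for the change of the HT29 effect from day 3 to day 8 went from 7 to 11, 11 and 4, with 1809 and 1842 genes in the first 2 of these in place of 1072. The median of the amino acid arm in that comparison, 0.24, was -0.08 with no filter. In Colo-205 the members called went from 0 to 4 without background correction, 1 with median scaling, 4 in the authors' values and 3 with a normexp fit that leaves out the detection p-values, and all genes from 158 to 456, 247, 464 and 304, with 18 under no filter. The line difference went from 6 to 12 members both without background correction and in the authors' values (1225 and 1259 genes in place of 664), and HT29 day 8 from 10 to 5 when fitted on its 4 arrays alone (1144 genes in place of 2022), a fit with fewer arrays. The cause of the other shifts was not tested. With median scaling, the split of all calls from day 3 to day 8 was 30.1% higher in place of 41.9%, and the median over all genes stayed within 0.08 of 0. Of 5598 values of genes compared, 114 that were called under neither setting changed sign. With arrays left out in turn, members and genes called ranged as follows, a lone array being taken to vary like the other groups: HT29 day 1, 9 to 13 and 1861 to 3121. Day 3 gave 7 to 14 and 832 to 2289, and day 8 gave 7 to 10 and 996 to 2048. The change from day 1 to day 8 gave 4 to 9 and 1224 to 2139, and that from day 3 to day 8 gave 1 to 7 and 444 to 1277, with an amino acid median of -0.01, without PLX4720 replicate 1 of day 8, to 0.30. Time in DMSO gave 14 to 21 and 4121 to 5326, and time in PLX4720 gave 1 to 9 and 890 to 2281. Colo-205 gave 0 to 2 and 0 to 480, and the line difference 0 to 5 and 0 to 534. The normexp fit without detection p-values and the HT29 arrays left out of the line difference were chosen after seeing the data. Only 2 arrays a group in HT29, and 1 in Colo-205, limit what can be called, as do probes near background.

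HT29 replicate numbers were also tried as a block, though same-numbered arrays did not deviate together (r from -0.02 to 0.13 over pairs of groups). Under the block, 13, 15 and 10 members were called at days 1, 3 and 8, 10 and 8 for the change of the effect to day 8 from days 1 and 3, and 21 and 9 for time in DMSO and PLX4720. The block ended the calls of SDF2L1 at day 8 (adjusted p = 0.0532), DNAJB9 for the change from day 3 to day 8 (0.0522) and HSPA5 for time in DMSO (0.0586). In Colo-205 the fit with day as a block already pairs the arrays of a day.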
